A study of Mus musculus with 11 samples.

Results

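The SIBLING genes Dspp, Dmp1, Ibsp, Mepe and Spp1 lie side by side on mouse chromosome 5, and 42 of the 94963 accessible chromatin regions found in MPC2 cells fell in their cluster. The members were all regions that overlapped the interval from 50 kb before Dspp to 50 kb after Spp1, chr5:104120712-104491050 in the mm10 build, with genes placed by GENCODE vM21. MPC2 is a conditionally immortalized mouse mesenchymal progenitor line that can be differentiated into osteocyte-like cells in culture. ATAC-seq, which uses the Tn5 transposase to cut and tag open DNA, is given here for 11 cultures, after the authors left out a sample for its quality. Of these, 3 were progenitors (MSCs) given the DMSO vehicle and 3 were MSCs given FG-4592. Another 2 were osteocytes, differentiated for 3 weeks, given vehicle, and 3 were osteocytes given FG-4592. FG-4592 (Roxadustat) inhibits the prolyl hydroxylases that mark hypoxia-inducible factors (HIF) for destruction, and was used at 50 uM for 48 h. All groups came from the same line, so the osteocyte state is one reached in vitro.

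The region list holds 1 pooled level per region, in log2 CPM (counts scaled to a common library size), over all cultures. It gives no value per culture, so MSCs cannot be set against osteocytes or FG-4592 against vehicle, no replicate error can be given, and the depth of each library is unknown. Every value below is a description of the pooled list, with no test between conditions.

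SIBLING stands for small integrin-binding ligand N-linked glycoproteins. These are acidic, secreted and heavily phosphorylated proteins of bone and dentin that bind calcium and hydroxyapatite, and bind integrins through an RGD motif. Dspp encodes dentin sialophosphoprotein, the main noncollagenous protein of dentin. Dmp1 encodes dentin matrix protein 1, made by osteocytes and needed to restrain Fgf23, the phosphate-lowering hormone. Ibsp encodes bone sialoprotein, which promotes crystal nucleation. Mepe encodes an osteocyte phosphoglycoprotein whose acidic ASARM peptide inhibits mineralization. Spp1 encodes osteopontin, a cell adhesion protein and an inhibitor of crystal growth.

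The sequences just upstream of 4 of these genes were taken from RefSeq (GRCm38.p6, the assembly of mm10), which matched 4 of the 5. They are shown because these 4 promoters share a paired element. Dspp was not matched, so its promoter was not searched for it. Capitals mark ATTGG, an inverted CCAAT box, and a TATA-like box, TTTAAA or TTTATA. All are on the plus strand, on which all 5 genes are transcribed. Ibsp is given as 2 short stretches, since its boxes lie within exon 1 of the GENCODE model.
Dmp1, chr5:104202513-104202612: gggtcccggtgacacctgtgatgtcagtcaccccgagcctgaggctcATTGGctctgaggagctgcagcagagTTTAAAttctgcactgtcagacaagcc
Ibsp, chr5:104299227-104299242: gctgtgATTGGctgtt
Ibsp, chr5:104299253-104299270: gaagggTTTATAgtcagc
Mepe, chr5:104325229-104325342: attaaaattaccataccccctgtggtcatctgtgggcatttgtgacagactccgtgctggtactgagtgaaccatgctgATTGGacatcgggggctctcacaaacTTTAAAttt
Spp1, chr5:104435018-104435117: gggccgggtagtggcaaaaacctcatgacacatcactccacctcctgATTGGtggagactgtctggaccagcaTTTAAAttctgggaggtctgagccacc

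In all 4 genes the first base of the TATA-like box lay 26 bases after the first base of ATTGG. In Dmp1 and in Spp1 the ATTGG began 53 bp before the GENCODE start and the TTTAAA 27 bp before it. The RefSeq starts differ: there the boxes began 57 and 31 bp before the start in Dmp1, and 46 and 20 bp before it in Spp1. In Ibsp the ATTGG began 54 bp and the TTTATA 28 bp before the RefSeq start, which lies 116 bp inside the GENCODE exon. Counted from the GENCODE start of Ibsp, they began 62 and 88 bp after it. In Mepe the ATTGG began 21 bp before the start and the TTTAAA lay just after it, which is not where a TATA box is usually placed. Over 32851 RefSeq promoter windows of 300 bases, searched on the strand of the gene, 22.1% held ATTGG and 18.6% held either TATA-like box. Only 17 windows (0.0517%), of 13 gene symbols, held the pair at a distance of 26 bases. Over 28 other distances the number of windows ranged from 3 to 10. The 9 symbols outside the cluster were Mbd3, Olfr776 and Olfr799 (olfactory receptors), Sost (the osteocyte Wnt inhibitor sclerostin), Vsnl1, Gm30256, Gm33539, Gm40986 and Gm42352. The pair was searched for after these sequences had been read, so its rarity is a description. Its letters and distance came from the 4 cluster genes, whose own windows are among the 17. The excess over other distances was therefore partly built in.

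The cluster held many regions for its length. Its 370.339 kb carried 113 regions per Mb, against 30.5 on the whole of chromosome 5 and 34.8 over the 21 chromosomes. Of 7347 genome tiles of the same length, 95.7% held fewer than 42 regions, with a median of 8 and a maximum of 68. The regions covered 6.79% of the cluster, against 2.06% of the genome. When regions at least 500 bp wide were counted alone, 17 remained, or 45.9 per Mb against 15.9 genome-wide.

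The levels of the regions were near those of the list. They ran from −0.82 to 5.32 log2 CPM, the interquartile range from 1.09 to 2.86, about a median of 2.03, and the median over the whole list was 2.12. The sign of that small difference depends on the flank: with flanks of 20 kb or 100 kb the median of the cluster was 2.198 or 2.21, above the list, and without the tandem array inside Mepe it was 1.87. Exactly 21 of the 42 were above the median of the list. Level rose with width across the list, and the cluster's regions were slightly narrow, with a median of 420 bp against 460 bp. Among list regions whose width differed by at most 10%, the median member stood at percentile 40.4, and 17 of 42 stood above percentile 50. The 7 members above 4 log2 CPM, 16.7% of members against 17.1% of the list, held 59.1% of the summed 345 CPM, and regions above 4 held 63.5% of that of the list. They include the promoter of the neighbouring gene Pkd2 and the tandem array.

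**Figure D1:**
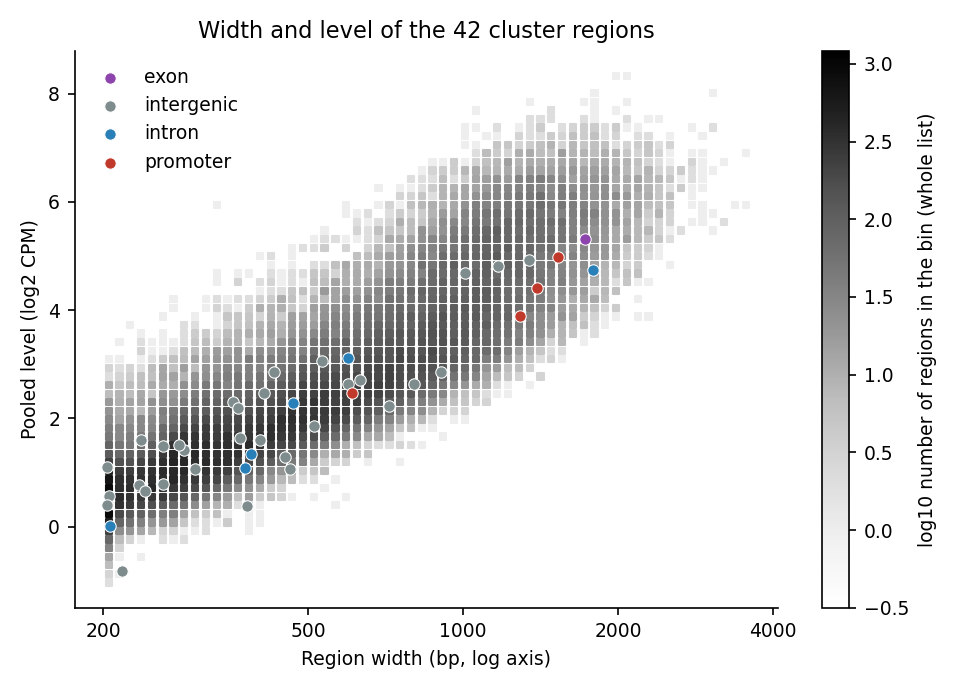
Width (bp, log axis) and pooled level (log2 CPM) of the 42 cluster regions, coloured by where they lie, over the number of regions of the whole list in each bin (grey). The points spread over the grey band, with 9 above percentile 75 and 14 below percentile 25 among regions of like width, and a median percentile of 40.4.

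Most of the cluster's regions lay between genes. In all, 31 of 42 (73.8%) were intergenic, against 33.3% of the list. Another 6 were intronic (14.3% against 37.3%), 4 were within 1000 bp of a transcript start (9.52% against 22.7%) and 1 was exonic. The intergenic members had a median level of 1.61 log2 CPM, and intergenic regions of the list one of 1.87. The 96.5 kb between Mepe and Spp1 held 18 regions and 38.4% of the summed CPM, and the 85.1 kb between Dmp1 and Ibsp held 8 regions and 22.5%. The 13.9 kb between Ibsp and Mepe held none. The longest stretch with no region, 39.5 kb, ran from 8987 bp upstream of Dspp through the whole gene to the Dmp1 promoter.

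**Figure D2:**
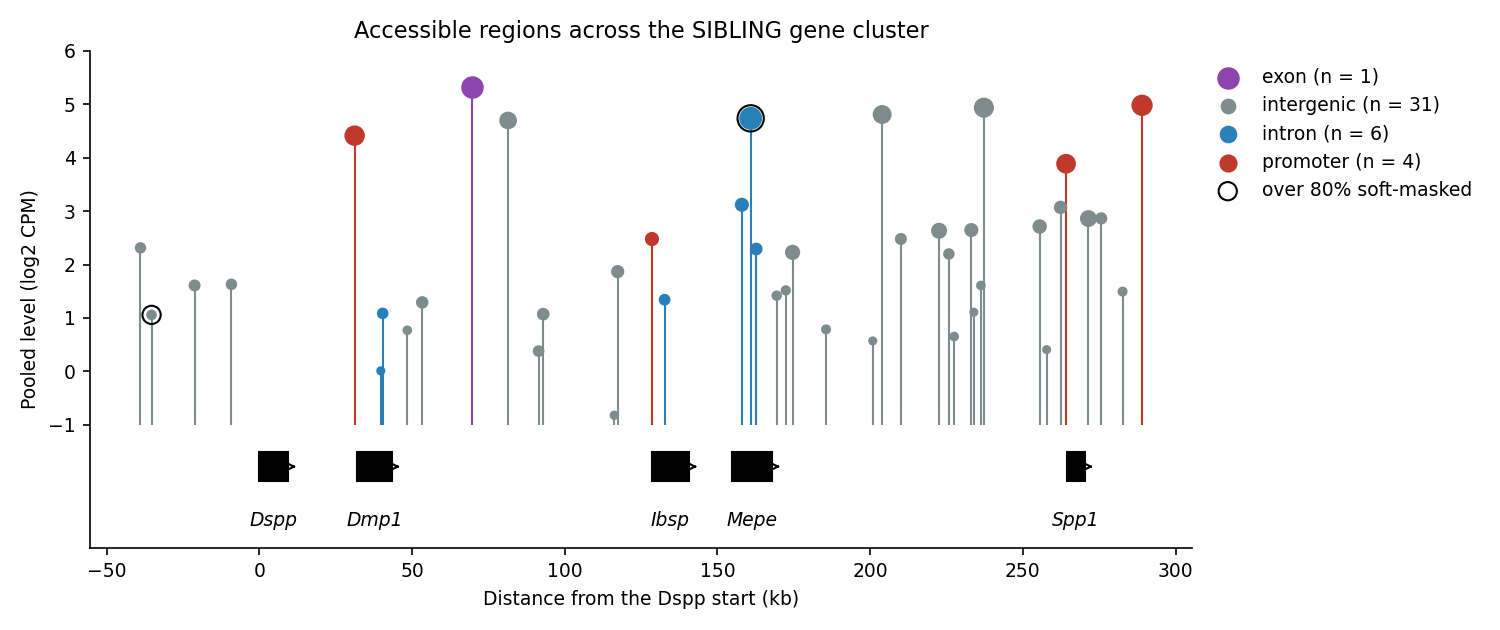
Pooled level (log2 CPM) of each accessible region against its distance from the Dspp start (kb), with point area proportional to width, colour by location and black boxes for the 5 genes. Rings mark the 2 regions over 80% soft-masked as repeats. The Dspp body holds no region, and the highest points stand in an exon of the noncoding Gm31048 between Dmp1 and Ibsp, in intergenic sequence, in the Mepe intron and at the start of Pkd2 on the far right.

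A region at the promoter was found for 3 of the 5 genes: Dmp1, Ibsp and Spp1. Over 21938 protein-coding genes the share was 64.1%. All 5 SIBLING promoters were poor in CpG, with an observed over expected CpG ratio of 0.203 to 0.343, and among the 13532 coding genes with CpG-poor promoters the share was 46.9%. The count of 3 in 5 is therefore near the background. Promoter regions of CpG-poor genes had a median level of 4.35 log2 CPM, with quartiles of 2.76 and 5.28.

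**Figure D3:**
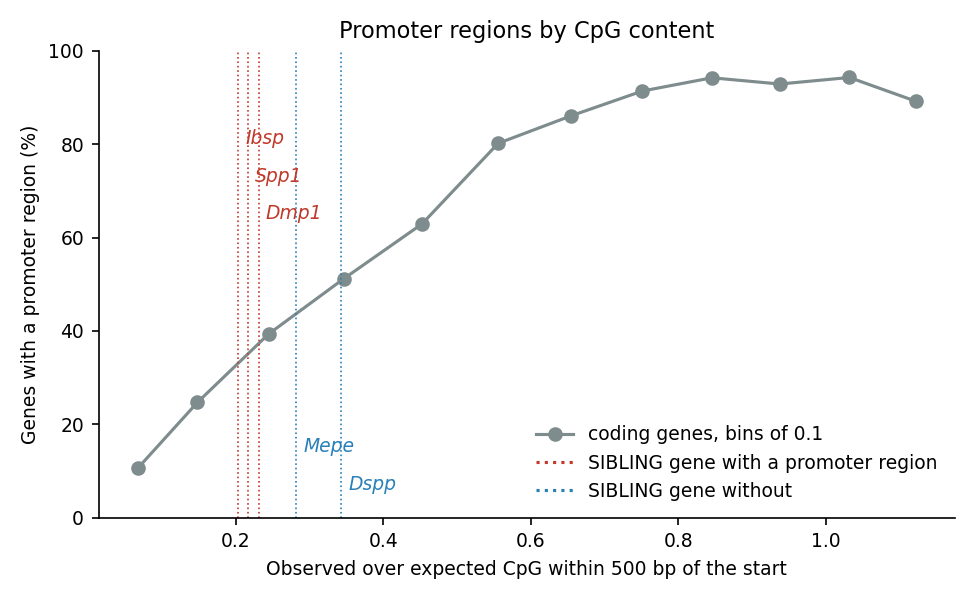
Share of protein-coding genes with a region within 1000 bp of a transcript start, in bins of observed over expected CpG, with dotted lines at the ratios of the 5 SIBLING genes. The share is 10.6% in the lowest bin, peaks at 94.3% and is 89.2% in the highest bin, and Ibsp, Spp1 and Dmp1, which had a promoter region, have lower ratios than Mepe and Dspp, which had none.

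Dspp (chr5:104170712-104180127) was nearest to the fewest regions of the 5, with 4. Their median level, 1.62 log2 CPM, was above that for Dmp1 (1.19) and Ibsp (1.34). From 50 kb upstream to the gene end, Dspp and Dmp1 each had 4. No region lay in Dspp or within 1000 bp of its start. The closest, chr5:104161358-104161725, ended 8987 bp upstream, was 368 bp wide and had a level of 1.63 log2 CPM. The other 3 regions upstream had levels of 1.06 to 2.31. The low end, chr5:104135250-104135551, was 93.0% soft-masked, that is, marked as repeat in the genome sequence.

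Dmp1 (chr5:104202613-104214102) had the highest promoter region of the 5 genes. The region, chr5:104201194-104202588, was 1395 bp wide, ended 25 bp before the start and had a level of 4.41 log2 CPM. That level was above 51.2% of CpG-poor promoter regions but above only 24.2% of list regions of like width. The region held RUNX sequences (TGTGGT) beginning 972 bp and 160 bp before the start, an AP-1 sequence 1090 bp before it and an HRE core within CACGTG 1270 bp before it. RUNX factors include Runx2, the master regulator of osteoblasts, AP-1 is the Fos and Jun dimer, and the HRE core (ACGTG or GCGTG) is the sequence HIF binds. The region held the ATTGG of the pair and ended within its TTTAAA. Inside the gene only 2 weak intronic regions were found, at 0.01 and 1.09 log2 CPM.

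The highest region of the cluster stood 37.6 kb downstream of the Dmp1 start. It was chr5:104239393-104241120, 1728 bp wide, at 5.32 log2 CPM, percentile 39.3 for its width, and it overlapped exon 3 of the noncoding RNA gene Gm31048. Its neighbour chr5:104251647-104252654, intergenic and 47.0 kb before the Ibsp start, had a level of 4.70 and stood at percentile 71.3 for its width. The other 6 regions between Dmp1 and Ibsp were much lower, the highest of them at 1.87. The lowest region of the cluster, at −0.82, was also here.

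Ibsp (chr5:104299171-104311469) had a promoter region of lower level than those of Dmp1 and Spp1. It covered chr5:104298948-104299555, which includes exon 1 and both capitalized boxes, and had a level of 2.48 log2 CPM over 608 bp. Of CpG-poor promoter regions, 21.7% were lower. For its width the region stood at percentile 41.6, above the promoter regions of Dmp1 (24.2) and Spp1 (15.9). The gene held 1 other region, in an intron, at 1.34.

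Mepe (chr5:104325329-104338611) had no promoter region, and its accessible sites were in its introns. The first, chr5:104328400-104328997, began 3071 bp after the start and had a level of 3.12 log2 CPM, at percentile 78.2 for its width. The third had a level of 2.29. The second, chr5:104330684-104332474, was the widest of the cluster at 1791 bp and had a level of 4.74, percentile 15.3 for its width, and 90.6% of it was soft-masked. It is a tandem array in which AGCAC occurred 251 times and covered 70.1% of the bases, as a stretch of 60 bases shows, with each counted copy in capitals:
Mepe intron, chr5:104330844-104330903: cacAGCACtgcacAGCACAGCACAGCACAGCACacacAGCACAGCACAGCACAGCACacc

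Only 1.24% of the list was over 80% soft-masked, against 2 of the 42 members. Reads from an array of short units can align to several places in it. Reads of low mapping quality had been discarded by the authors, and the part of this in the level was not tested. Without this region the median level of the other 41 was 1.87 log2 CPM, below the 2.03 of all 42.

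Spp1 (chr5:104435118-104441050) was, of the 5 genes, nearest to the most regions, 16 of 42. Of these, 1, at 4.98 log2 CPM, was the promoter of the next gene, Pkd2 (chr5:104458972-104460498). Another, chr5:104453226-104453486 at 1.49, was also nearer the Pkd2 start. The Spp1 promoter region covered chr5:104434211-104435501, including exon 1, with a level of 3.89 over 1291 bp. It was above 40.2% of CpG-poor promoter regions and above 15.9% of list regions of like width. A second region, chr5:104432794-104433325, centred 2.06 kb before the start, had a lower level of 3.07 but stood at percentile 86.3 for its width. Downstream of the gene, chr5:104441721-104442628 and chr5:104446146-104446575 had nearly the same level, 2.86, but stood at percentiles 12.9 and 92.2 because they were 908 and 430 bp wide. Except for the promoter region, no region lay in the gene itself.

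Both of the regions just upstream of Spp1 held a direct repeat of the kind bound by the vitamin D receptor, which is paired hexamers 3 bases apart. Osteopontin is a known target of vitamin D. In capitals are the matches, with 20 bases on either side:
Spp1 promoter region, chr5:104434340-104434394: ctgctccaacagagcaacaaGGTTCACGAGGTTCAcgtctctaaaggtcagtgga
Spp1 upstream region, chr5:104433140-104433194: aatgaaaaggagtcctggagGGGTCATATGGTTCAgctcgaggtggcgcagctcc

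The first match began 758 bp and the second 1958 bp before the GENCODE start. No other region of the cluster held such a repeat, and 0.148% of the list did. The HRE core of the promoter region overlaps the end of the first repeat. The promoter region also held RUNX sequences beginning 697 and 135 bp before the start and a C/EBP sequence (TTGCNNAA) beginning 691 bp before it. C/EBP factors act in osteoblast and adipocyte differentiation.

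Farther upstream of Spp1 stood 2 of the highest intergenic regions. One, chr5:104407277-104408620, was centred 27.2 kb before the Spp1 start and had a level of 4.93 log2 CPM over 1344 bp. The other, chr5:104374041-104375211, lay 49.3 kb after the Mepe start and had a level of 4.81 over 1171 bp. At percentiles 46.7 and 56.8 for their width, both were ordinary for wide regions. Besides the 2 regions next to the Spp1 start, the next highest between Mepe and Spp1 were lower: chr5:104425893-104426524 at 2.71, chr5:104403525-104404122 at 2.65 and chr5:104392864-104393665 at 2.63.

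Stretches of 80 bases from the 3 highest members outside promoters show how their motif matches were arranged. Capitals mark the matches: AP-1 (TGACTCA or TGAGTCA) and RUNX in the first, homeobox (TAATTA), C/EBP and RUNX in the second, and TEAD (GGAATG), HRE core and C/EBP in the third, on either strand.
Gm31048 exon region, chr5:104240732-104240811: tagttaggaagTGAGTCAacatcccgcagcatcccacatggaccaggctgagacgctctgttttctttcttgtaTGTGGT
27 kb before Spp1, chr5:104407935-104408014: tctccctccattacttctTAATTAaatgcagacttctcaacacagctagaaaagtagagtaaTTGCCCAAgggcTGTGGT
Between Mepe and Spp1, chr5:104374630-104374709: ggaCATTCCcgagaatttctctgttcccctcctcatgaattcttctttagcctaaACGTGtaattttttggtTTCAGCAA

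All 3 of these wide regions held at least 1 AP-1 match somewhere along their length, and both of those between Mepe and Spp1 also held C/EBP. Among regions at least 500 bp wide, AP-1 was held by 29.4% of members and 28.1% of the list, and C/EBP by 52.9% and 33.7%. Over the whole cluster, AP-1 was held by 8 of 42 regions (19.0%), against 21.5% of list regions of like width. TEAD, the sequence read by the YAP coactivator's partners, was the commonest, in 19 (45.2%, 95% Wilson interval 31.2 to 60.1%) against 30.7%. In the central 200 bp of each region the TEAD shares were 16.7% and, over the list, 14.03%. In regions at least 500 bp wide they were 70.6% and 44.2%, and with the stricter letters GGAATGT 19.0% and 10.97%. C/EBP was in 13 (31.0%) against 22.9%, and homeobox, which DLX factors of bone and tooth bind, in 6 (14.3%) against 8.69%.

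The HRE core was in 13 (31.0%, interval 19.1 to 46.0%) against 45.7%, but its stricter form, ACGTG alone, was in 26.2% of members and 27.1% of the list. With both forms, the shares in the central 200 bp were 19.0% of members and 24.2% of the list. In regions at least 500 bp wide they were 47.1% and 66.3%. RUNX was in 12 (28.6%, interval 17.2 to 43.6%) against 41.4%, and its stricter form, TGTGGTT, in 16.7% of members and 18.1% of the list. With TGTGGT, the shares were 14.3% and 22.2% in the central 200 bp. In regions at least 500 bp wide they were 41.2% and 55.3%. Of the 29 RUNX matches, 12 lay in the tandem array inside Mepe, which leaves 17 matches in 11 of the other 41 regions. The cluster was lower in GC than the list, with a median of 45.6% against 49.8%, and no motif share, high or low, was compared at equal GC. The MEF2 sequence was in 2 regions (4.76% against 1.19%), the one closest upstream of Dspp and chr5:104342930-104343210 after Mepe, where it overlaps the homeobox match. They were named after their values were seen. The intervals treat regions as independent and cover counting error only, with no allowance for the number of motifs read. Those of TEAD, of MEF2 and of the vitamin D receptor repeat lay above the like-width shares, and the other 5 included them. MEF2 and the repeat rest on 2 regions each. Those of the repeat are neighbours upstream of Spp1, a known target of vitamin D. The TEAD interval included the share of the whole list, 31.5%, and that of the HRE core ended just below its own, 46.2%. The MEF2 share was 0% in regions at least 500 bp wide, and that of the vitamin D receptor repeat was 0% in the central 200 bp.

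**Figure D4:**
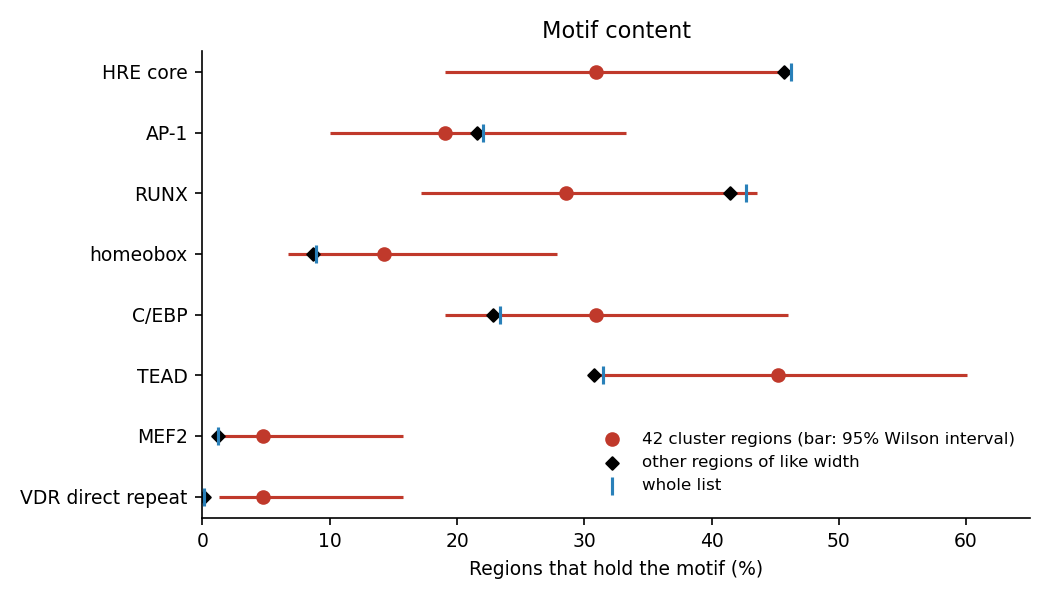
Share of the 42 cluster regions that hold each of 8 motifs (red, bar: 95% Wilson interval), with the share among list regions of like width (black diamond) and in the whole list (blue). Over whole regions, TEAD at 45.2% lies above its like-width share of 30.7%, and the HRE core at 31.0% lies below its own of 45.7% with an interval that reaches it, a gap that is smaller with ACGTG alone (26.2% against 27.1% of the list).

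The cluster was then set beside windows built in the same way around other matrix genes. The enamel matrix genes Odam, Amtn, Ambn and Enam, SIBLING relatives that are active in tooth and lie on the same chromosome, had 3 regions in 721 kb (4.16 per Mb) and no promoter region at any of the 4 genes. The window of the osteocalcin cluster of Bglap, Bglap2 and Bglap3 had 15 regions (129 per Mb) with a median level of 2.94 log2 CPM. Sparc encodes osteonectin and belongs to the family from which the SIBLING genes are thought to derive. Its window of 129 kb had 24 regions (187 per Mb) with a median of 3.67. Both windows were mostly flank and held other genes. The highest region of the Sparc window, at 7.44, was not at the Sparc promoter (5.47). The SIBLING cluster was close to the osteocalcin window in density and had a lower median level. Of the 15 osteocalcin regions 10 were at promoters, 3 of them at the Bglap genes, in a window of 116 kb with 9 coding starts. In the SIBLING cluster 4 of 42 were, in a longer window with 6 coding starts.

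**Figure D5:**
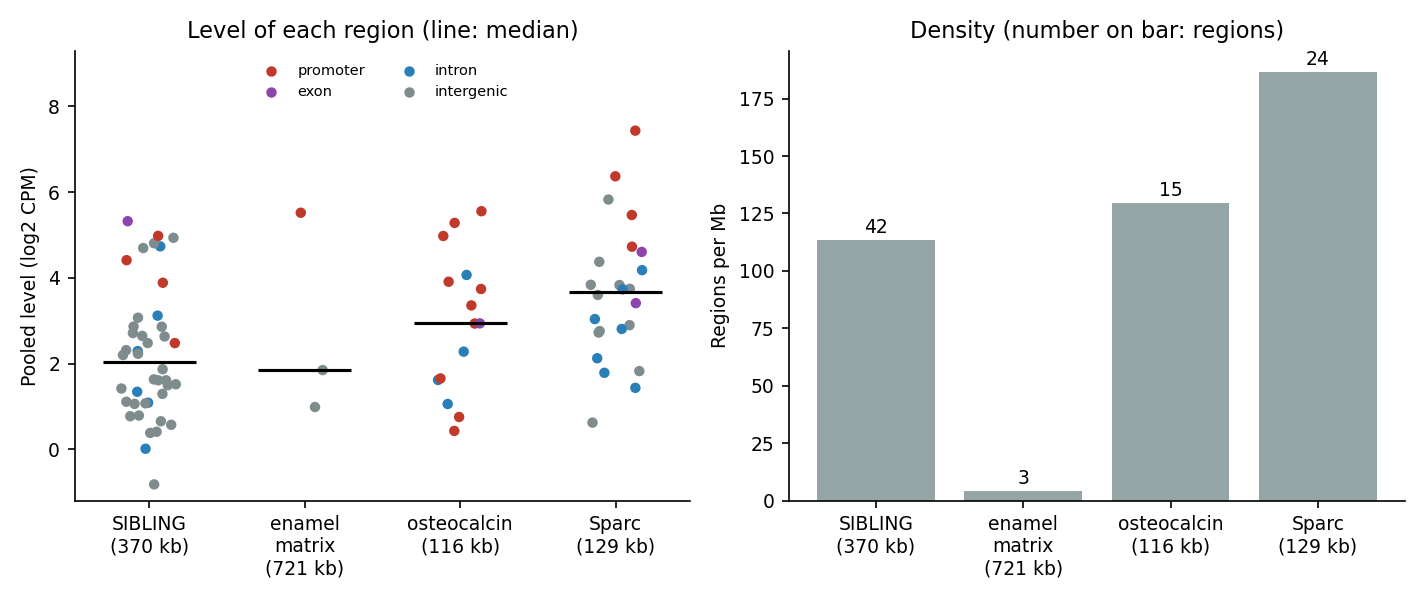
Left, pooled level (log2 CPM) of each region in the SIBLING window and in 3 windows built by the same rule, coloured by location, with the median as a line. Right, regions per Mb, with the number of regions on each bar. The SIBLING window holds 113 regions per Mb, mostly intergenic, and the enamel matrix window 4.16.

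Of 23 genes listed as relatives, partners or regulators of the SIBLING genes, 17 had a promoter region, against 64.1% of all coding genes. The receptors Itgav, Itgb3 and Cd44, which bind osteopontin, had promoter regions of 5.17 to 6.06 log2 CPM. Fam20c, the kinase that phosphorylates SIBLING proteins, had one of 5.82 and Bmp1, a protease that cleaves Dmp1 and Dspp, one of 5.86. Of the other proteases, Mmp2 had one of 3.92 and Mmp3 none. Of the phosphate and mineral genes, 3 of 4 had one: Ank at 5.79, Enpp1 at 4.27 and Alpl, the alkaline phosphatase, at 2.33. Phex, the endopeptidase of phosphate balance, had none. All 3 transcription factors had one, Vdr at 5.61, Runx2 at 5.05 and Sp7 at 4.06. Sparc and Sparcl1 had promoter regions of 5.47 and 3.99, and the 3 osteocalcin genes, which are near-identical copies, of 1.65 to 3.91.

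Checked against markers, 6 of 7 mesenchymal and osteogenic genes had a promoter region, at 4.06 to 6.13 log2 CPM, and Thy1 had none. Of 6 osteocyte genes, Dmp1 and Fgf23 (2.89) had one, and Sost, Phex, Pdpn and Mepe had none. Of the markers of other cells, Spi1 of blood (3.38), Pecam1 of endothelium (1.89), both adipocyte genes (2.96 and 1.05) and the neuronal Rbfox3 (2.41) had one, and 3 of 4 blood, 1 of 2 endothelial, both epithelial and the single muscle gene had none. Since MSCs and osteocytes were pooled in the levels used here, a region open in 1 of the states and a region weakly open in both cannot be told apart by them.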

How the data were processed

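The ATAC-seq used here came from 11 MPC2 cultures, after the authors left out a sample for its quality. Per the labels and methods, the authors trimmed reads with Trim Galore, aligned them to mm10 with Bowtie2, removed duplicates with Picard 2.17.8, discarded mitochondrial reads and those of low mapping quality, called peaks with MACS2 2.2.7.1, merged peaks over samples, removed blacklisted regions and those with few transposase cuts, and normalized cut counts with edgeR 3.24.3. A shift of the reads for the Tn5 offset is not given in the sources used here. The deposited list holds 94963 regions and 1 pooled value each, read from its values as average log2 CPM: 460 are below 0, and the values taken out of the log2 scale sum to 1012761. Depth per sample is therefore unknown.

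Regions were joined to GENCODE vM21 and to the GRCm38.p6 sequence (Python 3.11.15, pandas 2.3.3, pysam 0.24.0, samtools 1.23.1). Promoter regions lay within 1000 bp of an annotated start. CpG-poor promoters were those with under 55% GC or an observed over expected CpG ratio under 0.6 within 500 bp of the start. Motifs were searched on both strands, by their letters or, for MEF2 and the vitamin D receptor repeat, by consensus, and overlapping matches of 1 motif counted once. The search and the overlaps were tested on simulated data. With more than 25 members, the promoter regions and the 15 highest members were named. The members and gene lists were chosen with earlier results of these data known. Groups were not compared, since the list has no value per sample.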

Additional observations from a re-analysis of the deposited data

How the results depend on the processing

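The count of SIBLING genes with a promoter region stayed at 3 within 500 bp, within 2000 bp and from the gene's 5′ end alone. Of the 55 alternatives computed, 25 stayed within 1.5 times a count, within the interval of a share or within 0.1 of a median level, 27 moved further and 3 reversed. All 3 reversals were of the median level of the cluster minus that of the list, −0.09 on the log2 scale. It became 0.032 per kb of width, 0.074 with flanks of 20 kb (median 2.198) and 0.089 with flanks of 100 kb (median 2.21), and it stayed below 0, at −0.14, as the median difference from list regions of like width. Its sign thus depends on the setting. It was −0.36 for regions at least 500 bp wide (17 regions, 45.9 per Mb), where the median of the cluster was 3.12 and that of the list 3.48. Without the tandem array it was −0.26, with a median of 1.87. The alternatives without the array, and those of this difference by flank and by width, were chosen after seeing the data. From 10 kb upstream to the gene end, Dspp was given 1 region against 4 by nearest start, Dmp1 3 against 6, Ibsp 2 against 7, Mepe 3 against 9 and Spp1 4 against 16. The nearest start was sought among the SIBLING genes alone. Some regions given to Dspp, Dmp1, Ibsp and Spp1 lay nearer the start of another gene, such as Gm26703, Gm31048 or Pkd2. In the central 200 bp, the motif shares were 19.0% for the HRE core (24.2% over the list), 7.14% for AP-1 (12.1%), 14.3% for RUNX (22.2%), 16.7% for C/EBP (9.79%), 16.7% for TEAD (14.03%), 11.9% for homeobox (3.32%), 4.76% for MEF2 (0.530%) and 0% for the vitamin D receptor repeat (0.0495%). In regions at least 500 bp wide they were 47.1% for the HRE core (66.3% of wide regions of the list), 41.2% for RUNX (55.3%) and 52.9% for C/EBP (33.7%). There TEAD had 70.6% (44.2%) and MEF2 0% (1.85%). Stricter letters gave 26.2% for the HRE core (27.1% of the list), 16.7% for RUNX (18.1%), 9.52% for C/EBP (4.56%) and 19.0% for TEAD (10.97%), and looser letters 85.7% for homeobox (76.4%) and 31.0% for AP-1 (28.1%), which was below the list with the main letters. The cause was not tested. No paired analysis was possible because levels per culture are absent from the table used here, and for the same reason no culture could be left out.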
